A study of Mus musculus with 16 samples.

Results

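The CC chemokine ligands are small secreted proteins that call leukocytes to a tissue. In the RNA of mouse monocytes cultured without the receptor NFAM1, 4 of them (Ccl3, Ccl4, Ccl5 and Ccl22) lay below the NFAM1+/+ level at 6 h whether or not the cells were stimulated, and Ccl2, Ccl6, Ccl7, Ccl9 and Ccl12 did not do so in both conditions. Both NFAM1-/- libraries lay below both NFAM1+/+ libraries in each condition for 5.54% of all genes tested, and of these 4 chemokines only Ccl4 in unstimulated cells passed the thresholds of fold change and adjusted p. The chemokines were chosen with earlier results of these data known, so shares of all genes given beside their counts are no test of the family. The 10 genes described, Ccl2, Ccl3, Ccl4, Ccl5, Ccl6, Ccl7, Ccl9, Ccl12, Ccl17 and Ccl22, were taken by symbol from the table of expression values. Of these, 9 are among the 13085 genes listed, and Ccl17 is not listed.

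CC chemokines have adjacent cysteines near the amino terminus and act on receptors coupled to G proteins. Ccl3, Ccl4 and Ccl5 attract monocytes and T cells, and Ccl3 and Ccl5 act on Ccr1. Ccl22 and Ccl17 share the receptor Ccr4 and attract T cells, and both are known as products of dendritic cells and activated macrophages. Ccl2, Ccl7 and Ccl12 act on Ccr2, the receptor by which monocytes leave the bone marrow, and Ccl6 and Ccl9 are ligands of Ccr1 found in rodents. Activated monocytes make many of these proteins, and NF-kB and interferon signaling are known to act on several of the genes.

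Monocytes came from C57BL/6 mice that were NFAM1+/+ or NFAM1-/-, the latter lacking exons 2 and 3 of Nfam1 in every cell after CRISPR editing of zygotes. NFAM1 is a transmembrane receptor with an activation motif (ITAM) in its cytoplasmic tail. Cells were cultured without a stimulus or pretreated with IFN-γ and then given 1 µg/mL MegaCD40L, a multimeric form of the ligand of CD40, and RNA was taken 6 or 24 h later. Each of the 8 combinations of genotype, stimulus and time has 2 libraries, 16 in all. The ages of the mice are not in the labels, which call the cells PBL monocytes, whereas the study's methods describe monocytes enriched from bone marrow. Nothing in the labels says which libraries came from separate mice, so p-values measure the spread between libraries, which may be technical. The study names fewer mice of each genotype than there are libraries, so some libraries share mice. Whether they do so within a group or between conditions or times, and which ones do, is not given.

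The labels disagree on genotype for 4 libraries at 24 h. Libraries 44 and 56 have NFAM1+/+ in the title and knockout in the genotype tag, and libraries 46 and 58 have the reverse. Genotype at 24 h is therefore given by title, by tag, and from the single pair of libraries per stimulus on which both labels name 1 genotype. At 6 h the title and tag of all 8 libraries name the same genotype. Nfam1 was counted over the whole gene, the exons left in place included, so its level does not check the labels. At 6 h Nfam1 was at 432 and 408 CPM, reads scaled for the size of the library, in unstimulated NFAM1+/+ libraries and at 299 and 321 CPM in NFAM1-/- libraries, but at 133 and 129 CPM against 135 and 127 CPM with the stimulus. The table gives log2 CPM, which the authors scaled by library, and 48295939 to 88514341 reads lie on the listed genes of a library.

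Of the monocyte markers, 10 of 10 were listed, and their summed level was 8140 to 30600 CPM. The summed level of the 10 neutrophil markers was 72.9 to 942 CPM, that of the 8 dendritic cell markers 76.5 to 404 CPM, and that of the 6 basophil, mast cell and eosinophil markers 7.66 to 101 CPM. None of 5 NK cell markers was listed, nor were the T cell markers Cd3e, Cd3d, Cd3g and Trac or the B cell markers Ms4a1 and Pax5. The 3 listed T cell markers summed to 0.605 to 7.0 CPM, the 2 listed B cell markers to 1.04 to 17.4 CPM, and the 3 listed platelet and erythroid markers to 2.10 to 36.9 CPM. With the stimulus at 6 h the monocyte markers summed to 8140 to 8390 CPM in NFAM1+/+ and 9820 to 10200 CPM in NFAM1-/- libraries, and the platelet and erythroid markers to 18.8 to 36.9 CPM against 8.1 to 11.9 CPM. The neutrophil markers overlapped between genotypes in their sum at 6 h, at 72.9 to 361 CPM, and 8 of 9 tested without and 7 of 9 with the stimulus had a negative difference, with medians of -0.48 and -0.65. The part of these cells in the chemokine differences at 6 h was not tested. In bulk RNA fewer cells of a type and less RNA per cell cannot be told apart.

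**Figure D1:**
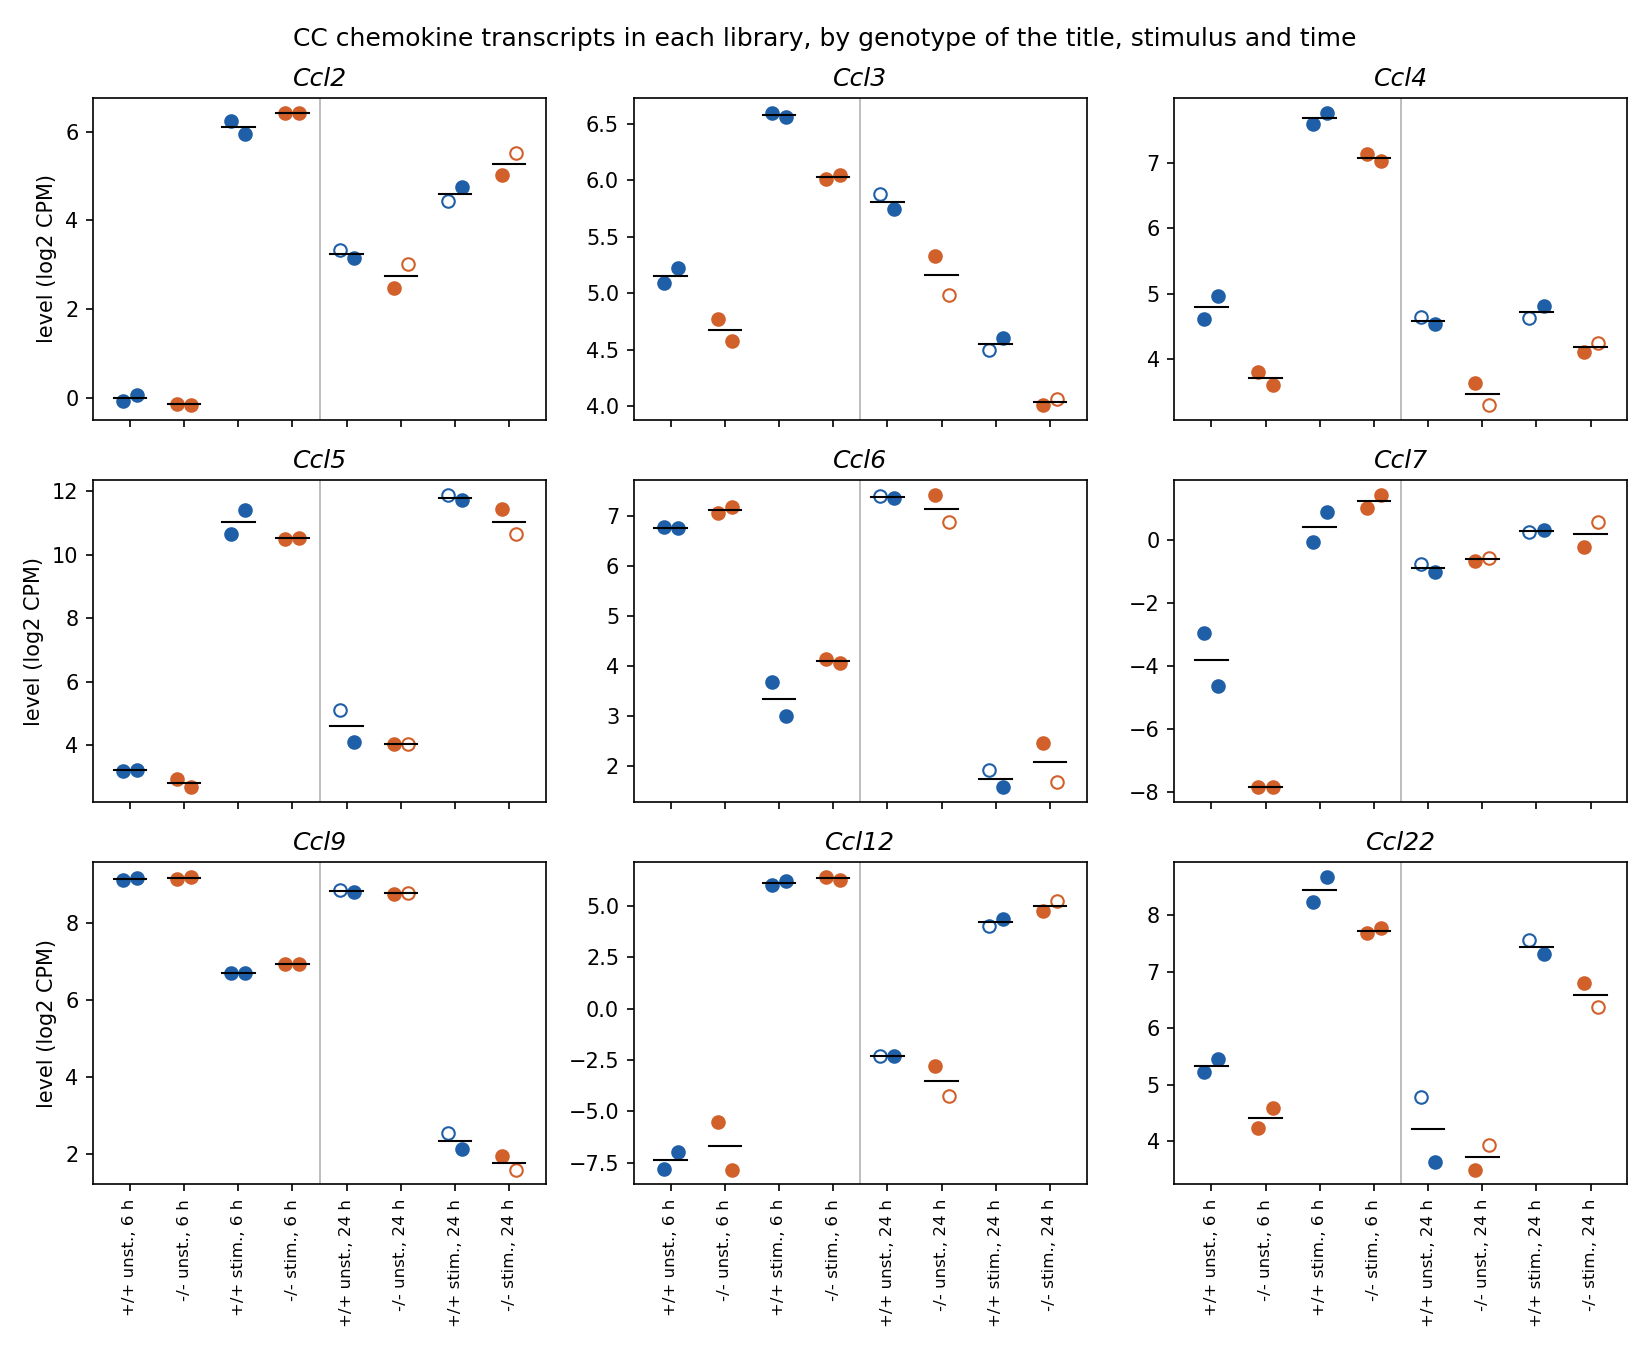
Level of the 9 listed CC chemokines in each of the 16 libraries, on the log2 CPM scale, with a separate vertical axis for each gene. Points are libraries (blue, NFAM1+/+ by title; orange, NFAM1-/- by title; open, title and tag name different genotypes) and black lines are group means of 2 libraries. Ccl3, Ccl4, Ccl5 and Ccl22 were lower in both NFAM1-/- libraries than in both NFAM1+/+ libraries at 6 h, and points of Ccl7 and Ccl12 below -4 stand for at most 4 reads.

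The first question was which CC chemokines were lower without NFAM1 at 6 h. Ccl4, an attractant of monocytes and T cells, had the smallest adjusted p of the 9 in unstimulated cells and in the average of both conditions, though not in stimulated cells. It was at 24.4 and 31.3 CPM in the unstimulated NFAM1+/+ libraries and at 13.9 and 12.1 CPM in the unstimulated NFAM1-/- libraries. With IFN-γ and MegaCD40L it was at 219 and 195 CPM against 141 and 130.5 CPM. Both NFAM1-/- libraries lay below both NFAM1+/+ libraries in each condition. The log2 fold change was -1.09 without the stimulus (SE 0.13, limma, Benjamini-Hochberg adjusted p = 0.0257) and -0.61 with it (SE 0.13, limma, Benjamini-Hochberg adjusted p = 0.260). Ccl4 was thus the only one of the 9 chemokines called in unstimulated cells at a fold change of 2 and an adjusted p under 0.05, against 0.0661% of the 12111 genes tested. With the stimulus 0 of 9 were called, against 0.0330% of genes.

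Ccl3, a ligand of Ccr1, was at 34.0 and 37.4 CPM in unstimulated NFAM1+/+ cells and at 27.3 and 23.9 CPM in unstimulated NFAM1-/- cells. With the stimulus it was at 94.5 and 96.9 CPM against 64.4 and 66.1 CPM, again with no overlap between genotypes. The log2 fold changes were -0.48 (SE 0.09) and -0.55 (SE 0.09), with limma adjusted p of 0.107 and 0.184. Ccl5 was at 9.12 and 9.23 CPM against 7.58 and 6.32 CPM without the stimulus. With it, Ccl5 was at 2728 and 1604 CPM in NFAM1+/+ libraries 26 and 10 and at 1441 and 1476 CPM in the NFAM1-/- libraries. The genotypes did not overlap, but the NFAM1+/+ libraries differed from each other by more than library 10 differed from the NFAM1-/- libraries. The log2 fold changes of Ccl5 were -0.41 (SE 0.20) and -0.52 (SE 0.20), with limma adjusted p of 0.644 and 0.359. The stimulated difference of Ccl5 was -0.14 without library 26 (limma adjusted p = 0.861) and -0.90 without library 10 (limma adjusted p = 0.00323).

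Ccl22, the T cell attractant, was at 37.3 and 43.8 CPM in unstimulated NFAM1+/+ libraries and at 18.9 and 24.1 CPM in unstimulated NFAM1-/- libraries. With the stimulus it was at 409 and 299 CPM against 205.0 and 218 CPM. All NFAM1-/- libraries lay below their NFAM1+/+ counterparts. The log2 fold changes were -0.92 (SE 0.16) and -0.73 (SE 0.16), with limma adjusted p of 0.0974 and 0.271. The dendritic cell markers, whose cell type also makes Ccl22, summed to 101 to 115 CPM in unstimulated NFAM1+/+ and 102 to 122 CPM in unstimulated NFAM1-/- libraries, and to 95 to 148 CPM against 76.5 to 85.9 CPM with the stimulus. The sums overlapped between genotypes without the stimulus and not with it, and their part in the difference of Ccl22 was not tested. Over all 16 libraries the highest of these markers was the receptor gene Ccr7, at up to 211 CPM. Its share of the sums was not taken.

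Averaged over both conditions, which uses 4 libraries a genotype that may share mice, Ccl4 was lower by a log2 fold change of -0.85 (SE 0.09, limma adjusted p = 0.0115), Ccl22 by -0.82 (SE 0.11, limma adjusted p = 0.0315) and Ccl3 by -0.52 (SE 0.07, limma adjusted p = 0.0180). These 3 of 9 had an adjusted p under 0.05 and a lower level, against 0.165% of the genes tested. None of them reached a fold change of 2, so 0 of 9 were called on that rule, against 0.0248% of genes. The study had already reported Ccl3, Ccl4 and Ccl22 as reduced without NFAM1 in stimulated cells at 6 h, from these data. The list was chosen with earlier results known, so 3 of 9 against 0.165% is no separate evidence about the family. Ccl5 was at -0.46 (SE 0.14, limma adjusted p = 0.233). Leaving out a library raised the adjusted p of at least 1 of the 3 above 0.05 for unstimulated NFAM1+/+ libraries 1 and 2, unstimulated NFAM1-/- libraries 3 and 4, and stimulated NFAM1-/- libraries 11 and 12, while the fold changes stayed between -0.94 and -0.47. For the call of Ccl4 in unstimulated cells the same held without library 2, 4, 11 or 12, with log2 fold changes of -1.09 to -0.91 and limma adjusted p of 0.0564 to 0.106.

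Counted by overlap alone, 6 of the 9 chemokines lay below in unstimulated NFAM1-/- cells, the 4 above with Ccl2 and Ccl7, against 20.4% of genes. Ccl7 counts here on 14 and 2 reads against 0 and 0, and it entered the test only through its stimulated libraries. Ccl2 counts on a log2 difference of -0.14. With the stimulus Ccl3, Ccl4, Ccl5 and Ccl22 lay below, 4 of 9, against 19.0% of genes. These 4 lay below in both conditions, against 5.54% of the genes tested. As the list was chosen with earlier results of these data known, these shares are no test of the family. The median log2 fold change of the 9 was -0.41 without and 0.24 with the stimulus, beside 0.00 and 0.01 over all genes tested.

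The ligands of Ccr2 did not share this pattern. Ccl2 was at 0.943 and 1.03 CPM against 0.909 and 0.887 CPM in unstimulated cells, a log2 fold change of -0.14 with a 95% interval from -0.48 to 0.21. With the stimulus it was at 62.0 and 75.9 CPM in NFAM1+/+ libraries and higher in both NFAM1-/- libraries, at 86.3 and 86.4 CPM. That difference of 0.33 had an interval from -0.01 to 0.68 (limma adjusted p = 0.410). Ccl12 was at 73.4 and 64.1 CPM in stimulated NFAM1+/+ and at 84.6 and 77.3 CPM in stimulated NFAM1-/- libraries, also without overlap. The difference was 0.24 (SE 0.71, limma adjusted p = 0.922). That SE comes from a spread common to all groups at 6 h, which takes in unstimulated libraries of 0 to 2 reads. It is not the spread of the stimulated libraries, so the p-value does not show equal levels. Ccl7 was low throughout, at 1.83 and 0.952 CPM against 2.01 and 2.68 CPM with the stimulus. Without the stimulus Ccl7 had 14 and 2 reads in the NFAM1+/+ libraries and 0 and 0 in the NFAM1-/- libraries, which is too few for a fold change.

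Ccl6 and Ccl9, the ligands of Ccr1 that fell with the stimulus, lay on the other side of zero. Ccl6 was at 109.5 and 108 CPM in unstimulated NFAM1+/+ and at 132.5 and 145 CPM in unstimulated NFAM1-/- libraries. With the stimulus it was at 7.95 and 12.7 CPM against 17.5 and 16.5 CPM. The NFAM1-/- libraries were higher in each condition, by 0.35 (SE 0.18, limma adjusted p = 0.658) and 0.76 (SE 0.18, limma adjusted p = 0.283). Without NFAM1+/+ library 10, Ccl6 was called higher in stimulated NFAM1-/- cells, at 1.10 (limma adjusted p = 0.00152), and without library 26 the difference was 0.42 (limma adjusted p = 0.426). Ccl9 was at 554 and 572 CPM against 565 and 585.5 CPM without the stimulus, with overlapping genotypes and a 95% interval of the log2 difference from -0.11 to 0.17. With the stimulus Ccl9 was at 104 and 105 CPM against 123 and 123.5 CPM, a difference of 0.24 (SE 0.06, limma adjusted p = 0.297). In all, 1 of 9 chemokines (Ccl6) lay above in unstimulated NFAM1-/- cells, against 21.9% of genes, and 5 of 9 (Ccl2, Ccl6, Ccl7, Ccl9 and Ccl12) lay above in stimulated cells, against 24.0% of genes.

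Whether the response to the stimulus itself differed by genotype was tested as an interaction. For 0 of 9 chemokines was it called, against 0% of genes, by limma with adjustment; 846 genes had an unadjusted p under 0.05. The difference in response was -0.07 for Ccl3 (95% interval -0.36 to 0.23), 0.48 for Ccl4 (0.07 to 0.89) and 0.19 for Ccl22 (-0.32 to 0.71), so only the interval of Ccl4 among these left out 0, before adjustment (limma adjusted p = 0.710). Those of Ccl9 (0.21, 0.01 to 0.41, limma adjusted p = 0.71) and of Ccl7, on few reads (limma adjusted p = 0.675), left it out too.

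**Figure D2:**
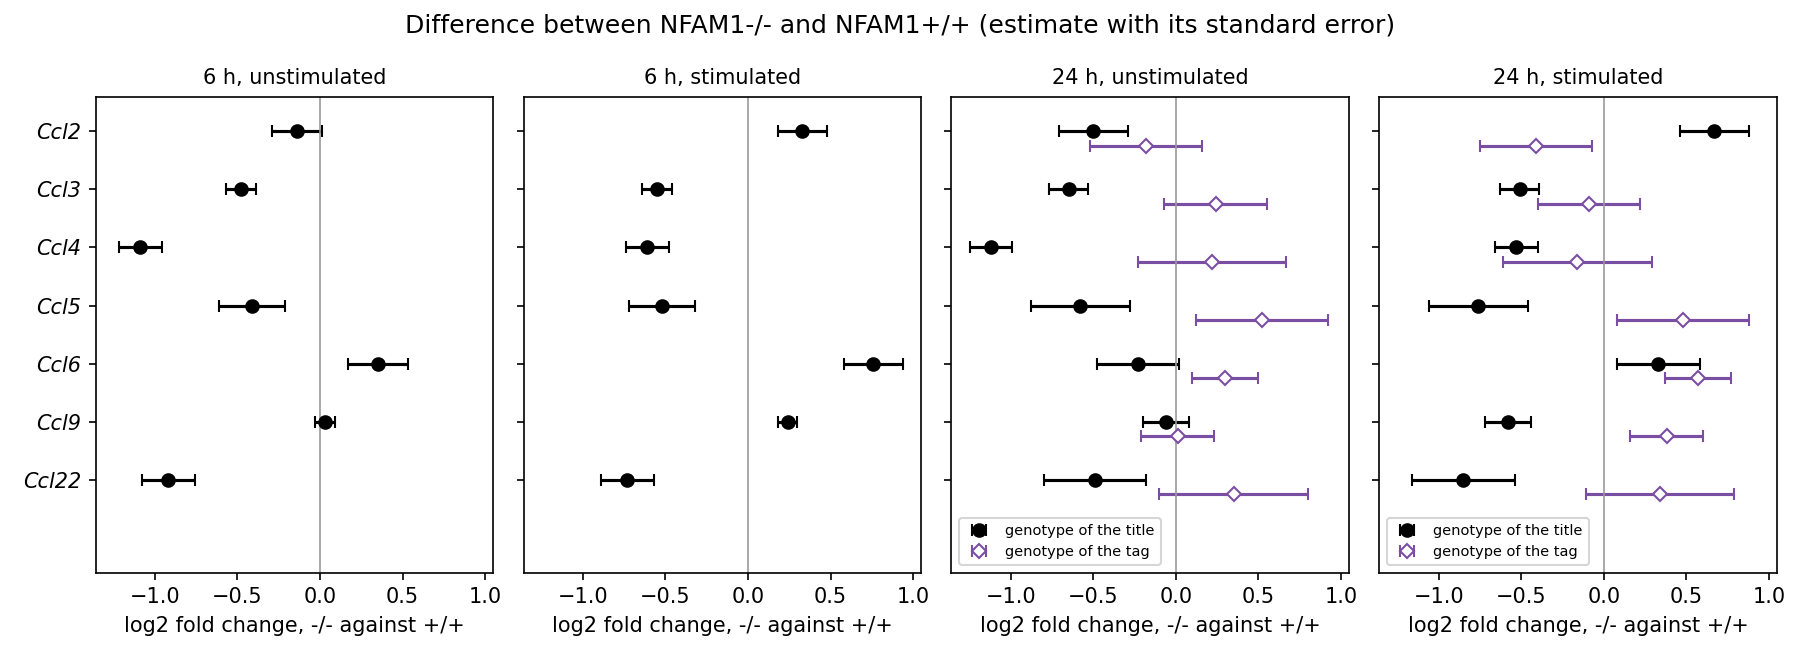
Log2 fold change of NFAM1-/- against NFAM1+/+ with its standard error for 7 CC chemokines, by stimulus and time. Black points use the genotype of the title and open diamonds, at 24 h, that of the tag. Ccl7 and Ccl12 are left out for few reads in unstimulated cells. At 6 h Ccl3, Ccl4, Ccl5 and Ccl22 lie left of zero in both conditions, and at 24 h the 2 labels place Ccl4 of unstimulated cells at -1.12 and 0.22.

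The chemokines whose NFAM1-/- libraries lay below in both conditions at 6 h were not next to each other throughout the genome. Among genes typed as protein coding in GENCODE vM21 on GRCm38, Ccl5, Ccl9, Ccl6, Ccl3 and Ccl4 follow in this order on chromosome 11. Ccl9 and Ccl6 thus lie between Ccl5 and Ccl3, and of the genes so typed only Rpl9-ps1 lies between Ccl6 and Ccl3. Ccl2, Ccl7 and Ccl12 lie in another group on chromosome 11, and Ccl22 and Ccl17 flank Cx3cl1 on chromosome 8. No exon of the 10 genes overlaps an exon of another annotated gene, so reads of an antisense or overlapping gene do not add to them in this annotation, although the libraries carry no strand.

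Sequence before the start is shown for Ccl3 and Ccl22, whose average at 6 h was lower without NFAM1 at an adjusted p under 0.05, and for Ccl6 and Ccl9, whose average was not. RefSeq promoters on GRCm38.p6 were held for 6 of the 10 genes, and Ccl2, Ccl4, Ccl5 and Ccl7 had none. Each sequence is 150 bases upstream of the start, written 5′ to 3′ on the strand of the gene, and capitals mark matches to the motifs searched.
Ccl3, chr11:83649379-83649528, minus strand: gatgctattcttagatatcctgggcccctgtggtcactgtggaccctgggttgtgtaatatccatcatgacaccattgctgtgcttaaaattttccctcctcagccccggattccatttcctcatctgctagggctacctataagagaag
Ccl22, chr8:94745440-94745589, plus strand: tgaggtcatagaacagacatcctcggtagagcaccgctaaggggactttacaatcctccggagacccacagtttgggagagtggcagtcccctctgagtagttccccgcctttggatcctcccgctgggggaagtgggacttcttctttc
Ccl6, chr11:83593088-83593237, minus strand: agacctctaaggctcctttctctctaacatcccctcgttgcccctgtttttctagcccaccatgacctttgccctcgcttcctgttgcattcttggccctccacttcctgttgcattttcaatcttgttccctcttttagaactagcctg
Ccl9, chr11:83578637-83578786, minus strand: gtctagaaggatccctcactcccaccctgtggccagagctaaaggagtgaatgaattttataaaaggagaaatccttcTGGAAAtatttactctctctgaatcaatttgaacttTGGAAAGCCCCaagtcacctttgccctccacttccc

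The motifs, searched on both strands of the 250 bases before the start, were the kappaB consensus, the core of the interferon-stimulated response element (ISRE) and the NFAT core TGGAAA. Ccl3, Ccl22, Ccl6 and Ccl12 held none of these letters. Ccl9 held 1 kappaB match and 2 NFAT cores, 1 of which overlaps the kappaB match, and Ccl17 held 1 NFAT core. Of 32851 promoters, 7.25% held the kappaB consensus, 2.98% the ISRE core and 18.6% the NFAT core. A missing match says only that these letters are not in the window.

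The second question was how the chemokines responded to IFN-γ and MegaCD40L. At 6 h, 7 of 9 rose and 2 fell in both genotypes. In NFAM1+/+ cells 19.6% of the genes tested were called higher and 20.1% lower, and in NFAM1-/- cells 18.8% and 19.4%. Ccl2, Ccl7 and Ccl12 entered the test only through their stimulated libraries, so the filter favored a rise and their calls are no separate evidence of one. With each library scaled by its own read total, the split in NFAM1+/+ cells was 1510 genes higher and 5181 lower in place of 2369 and 2438, and the median of all genes moved from -0.11 to -0.84. Under that scaling Ccl3 dropped out of the calls in both genotypes, at 0.70 and 0.62, which is above the median of all genes.

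Ccl5 and Ccl2 had the largest rises among those with reads in every library. Ccl5 was at 6.32 to 9.23 CPM in the 4 unstimulated libraries and at 1441 to 2728 CPM in the 4 stimulated ones. Its log2 fold change was 7.83 in NFAM1+/+ cells (SE 0.20, limma adjusted p = 1.5e-09) and 7.72 in NFAM1-/- cells (SE 0.20, limma adjusted p = 1.62e-09). Ccl2 went from 0.887 to 1.03 CPM up to 62.0 to 86.4 CPM, by 6.12 (SE 0.15, limma adjusted p = 1.34e-09) and 6.59 (SE 0.15, limma adjusted p = 8.39e-10). In both genes every stimulated library lay above every unstimulated one.

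Before the stimulus Ccl12 had 0 and 0 reads in NFAM1+/+ and 2 and 0 reads in NFAM1-/- libraries. Stimulated NFAM1+/+ cells had a mean of 68.8 CPM, at least 715-fold higher than a floor of 6 reads (3 read pairs) in a library. In NFAM1-/- cells 2 reads against 9161 gave a ratio of 9320, with a 95% counting interval from 1670 to 368000. Ccl7 rose in NFAM1+/+ cells from 16 to 150 reads over 2 libraries each, a ratio of 15.2 with a counting interval from 7.34 to 36.5, and in NFAM1-/- cells from 0 reads to a mean of 2.35 CPM, at least 44.8-fold higher than the floor. Without library 26 the rise of Ccl7 in NFAM1+/+ cells lost its call (limma adjusted p = 0.0563). These intervals cover counting error only.

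Ccl22 rose by 3.11 in NFAM1+/+ cells (SE 0.16, limma adjusted p = 1.55e-07) and by 3.31 in NFAM1-/- cells (SE 0.16, limma adjusted p = 1.03e-07). Ccl4 rose by 2.90 (SE 0.13, limma adjusted p = 5.52e-08) and 3.38 (SE 0.13, limma adjusted p = 1.84e-08), and Ccl3 by 1.42 (SE 0.09, limma adjusted p = 7.96e-07) and 1.35 (SE 0.09, limma adjusted p = 1.14e-06). Ccl3, Ccl4, Ccl5 and Ccl22, whose NFAM1-/- libraries lay below at 6 h, all rose with the stimulus, and so did Ccl2, Ccl7 and Ccl12, whose NFAM1-/- libraries lay above in stimulated cells. Ccl6 changed by -3.43 (SE 0.18, limma adjusted p = 1.78e-07) and -3.03 (SE 0.18, limma adjusted p = 4.38e-07) and Ccl9 by -2.43 (SE 0.06, limma adjusted p = 1.69e-09) and -2.22 (SE 0.06, limma adjusted p = 2.94e-09). All stimulated libraries of Ccl6 and Ccl9 lay below all unstimulated ones.

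**Figure D3:**
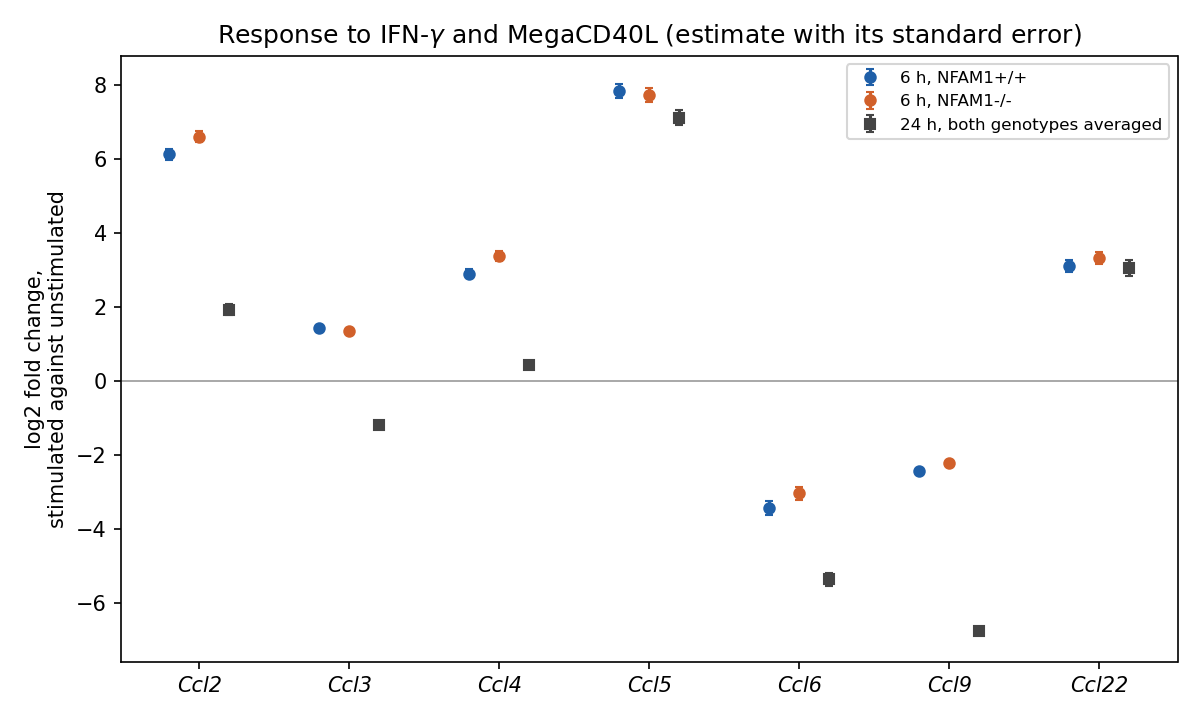
Log2 fold change of stimulated against unstimulated cells with its standard error for 7 CC chemokines, at 6 h in each genotype and at 24 h averaged over genotypes. Ccl7 and Ccl12 are left out because unstimulated libraries at 6 h held 0 to 14 reads. Ccl5 and Ccl22 kept a similar rise at 24 h, while Ccl3 went from 1.42 and 1.35 at 6 h to -1.19 at 24 h.

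At 24 h the response had changed shape. Averaged over the genotypes of the titles, 4 of 9 chemokines were higher with the stimulus, against 14.4% of genes, and 3 of 9 were lower, against 18.9%. Ccl12, counted among the 4, and Ccl7, which was not called, entered this test only through their stimulated libraries. The filter thus favored a rise, and the call of Ccl12 is no separate evidence of one. With scaling by own read totals, this split was 1336 genes higher and 3146 lower in place of 1753 and 2299. Ccl5 was higher by 7.11 (SE 0.21, limma adjusted p = 9.77e-10), with 16.2 to 34.6 CPM in the 4 unstimulated and 1604 to 3782 CPM in the 4 stimulated libraries. Ccl22 was higher by 3.05 (SE 0.22, limma adjusted p = 6.14e-07) and Ccl2 by 1.93 (SE 0.15, limma adjusted p = 1.09e-06). Ccl12 had 4 to 16 reads in unstimulated libraries and 16.2 to 37.5 CPM in stimulated ones.

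Ccl3 turned round, from 31.6 to 58.7 CPM without the stimulus to 16.1 to 24.4 CPM with it, a log2 fold change of -1.19 (SE 0.08, limma adjusted p = 5.23e-07). Ccl4 was at 9.77 to 24.9 CPM against 17.3 to 27.9 CPM, which overlap, and its 0.42 (SE 0.09) stayed under a fold change of 2. Ccl7 was at 0.491 to 0.674 CPM against 0.850 to 1.49 CPM, and its 0.98 (SE 0.29, limma adjusted p = 0.0110) lay just under the limit. Ccl6 fell by 5.35 (SE 0.18, limma adjusted p = 1.76e-09), to 2.96 to 5.50 CPM from 117 to 171 CPM. Ccl9 fell by 6.74 (SE 0.10, limma adjusted p = 1.37e-11), to 3.02 to 5.89 CPM from 435 to 461 CPM. These were the 2 chemokines that fell at both times.

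The time course differed by chemokine. In unstimulated cells 4 of 9 were higher at 24 h than at 6 h, against 13.2% of genes. These were Ccl2 by 3.08 (SE 0.14, limma adjusted p = 4.19e-10), Ccl5 by 1.32 (SE 0.21, limma adjusted p = 9.99e-05), and Ccl7 and Ccl12 from near 0 reads. Ccl7 and Ccl12 entered this test only through stimulated libraries and reached at most 0.674 and 0.201 CPM in unstimulated ones. In stimulated cells 7 of 9 were lower at 24 h than at 6 h, against 17.2% of genes. The largest of these falls were those of Ccl9 (-4.77, SE 0.08, limma adjusted p = 1.29e-13) and Ccl4 (-2.94, SE 0.10, limma adjusted p = 9.44e-12), followed by Ccl3 (-2.01), Ccl6 (-1.81), Ccl12 (-1.63), Ccl2 (-1.34) and Ccl22 (-1.07). Ccl7 was at -0.58 (SE 0.44) and Ccl5 at 0.65 (SE 0.21). With scaling by own read totals, with a median of all genes of 0.41 in place of 0.04, Ccl5 was called higher at 1.02, Ccl2 at -0.96 and Ccl22 at -0.70 were not called, and that split was 3390 genes higher and 1500 lower in place of 2111 and 2197. Time and any difference between the culture or sequencing runs of 6 and 24 h cannot be told apart.

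The 24 h response minus the 6 h response was called negative for 7 of 9 chemokines, against 18.2% of genes. Of the 7, Ccl7 and Ccl12 entered the test only through stimulated libraries and held 0 to 14 reads in unstimulated libraries at 6 h. Ccl6 and Ccl9, also among the 7, fell with the stimulus at both times, and more so at 24 h. With scaling by own read totals, the split of all genes was 3239 higher and 1566 lower in place of 1696 and 2328. Their median was then 0.44 in place of 0.04. The difference was -2.72 (SE 0.14) for Ccl4, -2.58 (SE 0.11) for Ccl3, -4.42 (SE 0.20) for Ccl2 and -4.42 (SE 0.12) for Ccl9. For Ccl5 it was -0.67 (SE 0.30, limma adjusted p = 0.0635) and for Ccl22 -0.16 (95% interval -0.78 to 0.46).

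At 24 h the genotype difference depended on which label was read. By title, 6 of 9 chemokines lay below in unstimulated NFAM1-/- cells (Ccl2, Ccl3, Ccl4, Ccl5, Ccl9 and Ccl12), against 23.3% of genes. In stimulated cells 5 of 9 did (Ccl3, Ccl4, Ccl5, Ccl9 and Ccl22), against 23.7%. Of the 6, Ccl9 differed by -0.06 and Ccl12 held 4 to 16 reads. By title Ccl7 lay above without the stimulus, and Ccl2 and Ccl12 with it. By the tag 0 of 9 lay below without the stimulus, against 11.6% of genes, and 1 of 9 (Ccl7) with it, against 14.5%. Ccl6 lay above by the tag in both conditions. The share of all genes lying above was not taken at 24 h, so members lying above are not read as a result. At 6 h that share was 21.9% without and 24.0% with the stimulus. By title Ccl3, Ccl4 and Ccl5 lay below in both stimuli at both times, against 0.798% of genes tested. The difference of Ccl5 by title was -0.58 without the stimulus (SE 0.30, limma adjusted p = 0.493) and -0.07 without library 44. In stimulated cells it was -0.76 (SE 0.30, limma adjusted p = 0.233) and -0.37 without library 58.

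Ccl4 was at 24.9 and 23.2 CPM in unstimulated libraries 44 and 45 and at 12.4 and 9.77 CPM in libraries 43 and 46. By title its log2 fold change was -1.12 (SE 0.13, limma adjusted p = 0.010), by tag 0.22 (SE 0.45, limma adjusted p = 1), and the difference of library 43 from library 45, on which both labels name 1 genotype, was -0.90. Ccl4 was the 1 chemokine of 9 called by title, against 0.222% of genes. By title this call was lost without library 44 or 46, at -1.07 and -0.95. Ccl3 was at 58.7 and 53.6 CPM in libraries 44 and 45 and at 40.2 and 31.6 CPM in libraries 43 and 46. Its difference was -0.65 by title (SE 0.12, limma adjusted p = 0.0428), 0.24 by tag (SE 0.31, limma adjusted p = 1) and -0.41 in the single pair. The adjusted p of Ccl3 by title rose above 0.05 without library 44, 45, 46, 56 or 57, to at most 0.269. With Ccl3, 2 of 9 chemokines had an adjusted p under 0.05 and a lower level by title, against 0.707% of genes.

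With the stimulus at 24 h, Ccl4 was at 24.6 and 27.9 CPM in libraries 56 and 57 and at 17.3 and 19.0 CPM in libraries 55 and 58, and Ccl3 was at 22.5 and 24.4 CPM against 16.1 and 16.8 CPM. The difference of Ccl4 was -0.53 by title (SE 0.13, limma adjusted p = 0.0800), -0.16 by tag (SE 0.45, limma adjusted p = 0.999) and -0.69 in the single pair of libraries 55 and 57. For Ccl3 these were -0.51 (SE 0.12, limma adjusted p = 0.0726), -0.09 (SE 0.31, limma adjusted p = 0.999) and -0.60. By title 0 of 9 chemokines were called, against 0.115% of genes. The single pairs gave -0.14 for Ccl22 and -0.06 for Ccl5 without and -0.51 and -0.28 with the stimulus. A single pair has no replicate check and equals the sum of the differences by title and by tag, so its sign is no independent evidence for either label.

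Ccl22 was at 27.6 and 12.4 CPM in unstimulated libraries 44 and 45 and at 11.3 and 15.3 CPM in libraries 43 and 46, so at 24 h it overlapped between the genotypes of the titles. Its difference of -0.49 (SE 0.31) turned to 0.08 without library 44. With the stimulus it was at 188 and 159 CPM against 112 and 83.0 CPM, -0.85 by title (SE 0.31, limma adjusted p = 0.195) and 0.34 by tag (SE 0.45, limma adjusted p = 0.999). The dendritic cell markers summed to 251 to 267 CPM in the unstimulated libraries titled NFAM1+/+ and to 363 to 404 CPM in those titled NFAM1-/-, and to 237 to 266 CPM against 154 to 224 CPM with the stimulus. Their part in these values was not tested. The Nfam1 level was 463 and 495 CPM against 441 and 391 CPM without the stimulus, and 271 and 252 CPM against 201 and 223 CPM with it, in the same order of titles.

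The other chemokines at 24 h had no call by title. Ccl9 with the stimulus was at 5.89 and 4.4 CPM in libraries 56 and 57 and at 3.85 and 3.02 CPM in libraries 55 and 58, a difference of -0.58 by title (SE 0.14, limma adjusted p = 0.0802) and of -0.37 without library 56 (limma adjusted p = 0.459). By tag it was at 0.38, and -0.19 in the single pair. Ccl2 with the stimulus was at 21.6 and 27.1 CPM against 32.3 and 45.6 CPM, higher in both libraries titled NFAM1-/- as at 6 h (0.67, SE 0.21, limma adjusted p = 0.141), with -0.41 by tag and 0.26 in the single pair. Without the stimulus Ccl2 was at 10.1 and 8.94 CPM in libraries 44 and 45 and at 5.56 and 8.11 CPM in libraries 43 and 46 (-0.50, SE 0.21, limma adjusted p = 0.388), and without library 43 the difference was -0.23. Ccl6 overlapped between the genotypes of the titles in stimulated cells, at 3.77 and 2.96 CPM against 5.50 and 3.20 CPM. Ccl12 with the stimulus was at 16.2 and 20.8 CPM against 26.8 and 37.5 CPM, a difference of 0.79 by title (SE 0.44), -0.42 by tag and 0.37 in the single pair. Without the stimulus, on 4 to 16 reads a library, the difference of Ccl12 was -1.21 by title (SE 0.44, limma adjusted p = 0.307), 0.74 by tag and -0.47 in the single pair. Both SE values of Ccl12 come from a spread common to all groups at 24 h, these few reads included. Ccl7 stayed between 0.491 and 1.49 CPM in all 8 libraries.

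The receptors and neighbouring pathways had no genotype call at 6 h. Of all genes tested, 0.0661% were called without the stimulus, 0.0330% with it and 0.0248% averaged over both. In lists this short, 0 calls therefore do not set them apart from all genes. Of 6 CC chemokine receptors tested, 0 were called in either condition, and their median over both conditions was 0.01, the same as that of all genes. The receptor Ccr7, which guides dendritic cells to lymph nodes and is also on the list of dendritic cell markers, was at -1.09 (SE 0.23, limma adjusted p = 0.110), and Ccr1 at 0.36 (SE 0.21). Of 8 CXC, CX3C and XC ligands, 0 were called and 6 had a negative value. Cxcl2, a neutrophil attractant, was at -0.96 (SE 0.14, limma adjusted p = 0.0345), and Cxcl3 at -1.34 (SE 0.49, limma adjusted p = 0.310). The other CC ligands tested were Ccl24, at -0.46 (SE 0.22), and Ccl25, at -0.03 (SE 0.21).

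NF-kB subunits and inhibitors had 0 of 12 called and 12 of 12 negative values, with a median of -0.17 beside 0.01 over all genes. Nfkbiz, an inhibitor-like cofactor of NF-kB, was at -0.45 (SE 0.10, limma adjusted p = 0.112) and Nfkbid at -0.33 (SE 0.08, limma adjusted p = 0.163). Interferon-gamma response genes had 0 of 12 called, with 11 negative values and a median of -0.35 without the stimulus and 2 negative values and a median of 0.08 with it. Among them Cd274, which encodes PD-L1, was at -0.75 without (SE 0.07, limma adjusted p = 0.0106) and -0.04 with the stimulus (SE 0.07, limma adjusted p = 0.840). Gbp5 was at -0.71 (SE 0.10, limma adjusted p = 0.0433) and 0.02 (SE 0.10, limma adjusted p = 0.961). The difference between conditions was not called for either gene (limma adjusted p = 0.209 and 0.606). All 12 interferon-gamma response genes rose with the stimulus at 6 h in both genotypes, with a median of 6.14 in NFAM1+/+ and 6.45 in NFAM1-/- cells.

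**Figure D4:**
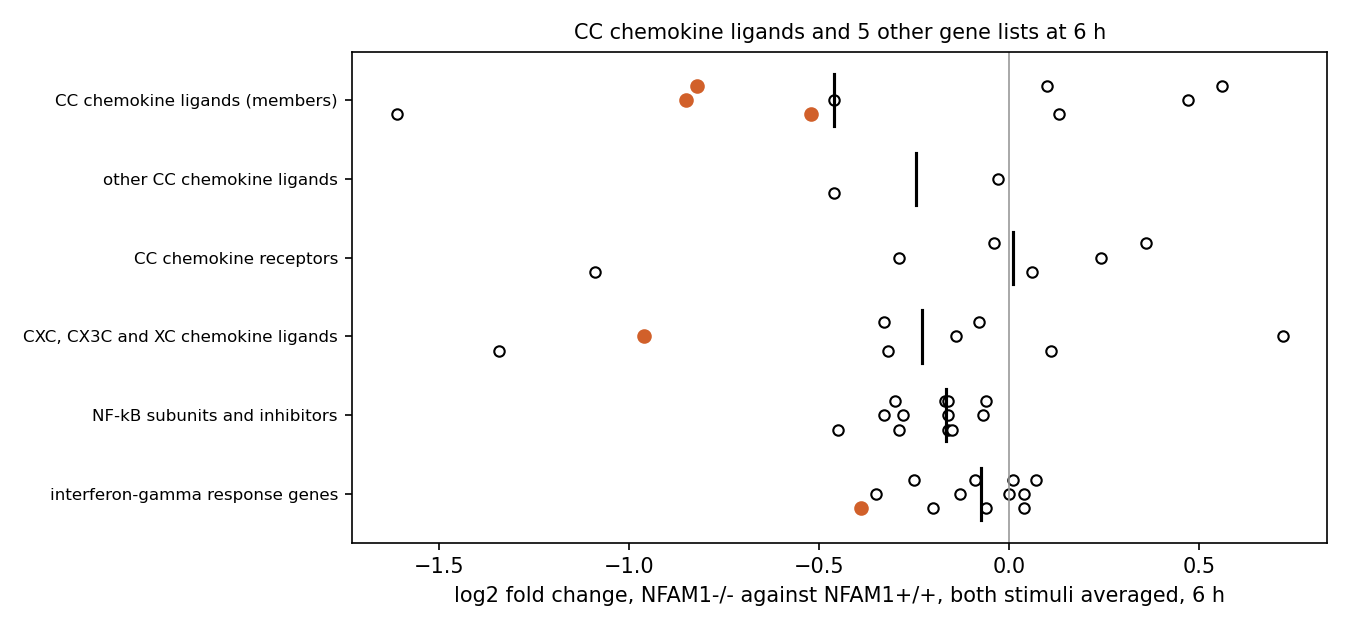
Log2 fold change of NFAM1-/- against NFAM1+/+ at 6 h, averaged over both conditions, for the 9 CC chemokines and the genes of 5 other lists. Each point is a gene (filled, limma adjusted p under 0.05), vertical bars are list medians, and vertical offsets only separate points. The filled points are Ccl3, Ccl4, Ccl22, Cxcl2 and Cd274, and the point of Ccl7 at -1.61 rests on 0 to 14 reads in unstimulated libraries.

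The receptors were also read for the response to the stimulus at 6 h. Ccr2 changed by -1.18 (SE 0.08, limma adjusted p = 1.42e-06) and -1.37 (SE 0.08, limma adjusted p = 5.15e-07) while its ligands Ccl2, Ccl7 and Ccl12 rose. Ccrl2, an atypical receptor, rose by 3.57 (SE 0.12, limma adjusted p = 1.07e-08) and 3.93 (SE 0.12, limma adjusted p = 5.59e-09). Ccr4 was not listed.

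Across the 16 libraries, which share stimulus and time as well as genotype, the chemokines fell into patterns. The log2 CPM of Ccl12 followed Ccl2 and Ccl5 with a Pearson r of 0.96 each, and Ccl6 followed Ccl9 with 0.93, while Ccl5 and Ccl6 ran opposite with -0.95. The genes most like Ccl5 were Nos2 (0.999), Dram2 (0.996) and Psmb8 (0.995), those most like Ccl4 were B4galt5 (0.975), Cd83 (0.975) and Sema4d (0.972), and those most like Ccl22 were Sdc4 (0.980), Xkr8 (0.979) and Dync1li1 (0.979). Ccl3 had no gene closer than Heg1 (0.948), followed by Cltc (0.945) and Cpd (0.943). Ccl2 was nearest to Lgals9 (0.991), Ece1 (0.987) and Sdcbp (0.987), and Ccl12 was close to Trim30d (0.992) and Trim30c (0.992). Ccl9 was nearest to Fn1 (0.995), Ankrd28 (0.995) and F13a1 (0.992), Ccl6 to Arap3 (0.990), Itpripl1 (0.990) and Dgkz (0.990), and Ccl7 to Tmcc3 (0.932), Slc4a8 (0.932) and Mir5107 (0.929).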

How the data were processed

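RNA was sequenced from 16 mouse monocyte libraries, 2 for each genotype, stimulus and time. Per the methods of the study and the submitters' processing notes, non-stranded paired reads were aligned with STAR (notes name GRCm39) and counted per gene with Rsubread, and edgeR and limma were used. The authors deposited log2 CPM values, made by adding 0.5 to the reads of a gene and dividing by a scaled total. Reads recovered from them were whole in 100% of values within 0.01. Of read numbers above 0 and under 200, 71.1% were even, so counting intervals and the floor of 6 reads used read pairs.

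Genes at 1 CPM or more in at least 2 libraries were tested with limma 3.58.1 in R 4.3.3, with a trended prior, on the libraries of 1 time (6 h, 12111 genes; 24 h, 12164) or all 16 (12782). A call needed a fold change of 2 and a Benjamini-Hochberg adjusted p under 0.05 over all genes tested. Genes named outside the 10 chemokines are the 2 most changed of each list, receptors of the chemokines, and the 3 genes with the highest Pearson r to each chemokine. Groups follow the titles. Symbols turned into dates (17) were not used. The members and lists were chosen with earlier results of these data known. Sequences are from RefSeq. Some genes and a motif that these rules would name are not reported here.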

Additional observations from a re-analysis of the deposited data

Results flagged for a closer look

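The response to IFN-γ and MegaCD40L differed between 24 h and 6 h for 7 of 9 chemokines, by a limma test of the difference itself over all 16 libraries. All 7 were called negative, against 18.2% of genes. Time and any difference between the culture or sequencing runs of 6 and 24 h cannot be told apart. On the log2 scale the 24 h response minus the 6 h response was -4.42 for Ccl2 (limma adjusted p = 6.21e-10). From 6 to 24 h Ccl2 changed by 3.08 in unstimulated and by -1.34 in stimulated cells, so most of its difference lay in the unstimulated level. The difference in response was -2.58 for Ccl3 (limma adjusted p = 4.56e-10) and -2.72 for Ccl4 (limma adjusted p = 1.73e-09). Ccl6 and Ccl9 fell with the stimulus at both times, and the fall was larger at 24 h. Their differences were -2.12 (limma adjusted p = 4.33e-06) and -4.42 (limma adjusted p = 1.12e-11). The differences of Ccl7 (-5.65, adjusted p = 2.29e-06) and Ccl12 (-5.74, adjusted p = 2.58e-06) rest on unstimulated libraries at 6 h with 0 to 14 reads and are no bounds.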

How the results depend on the processing

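Of 2106 values recomputed under alternatives, 2026 kept their direction and side of the threshold, 28 changed sign, 16 lost and 24 gained a call, and 12 counts moved. No paired analysis was possible because no replicate number is shared between groups. With 2 libraries a group, 1 library could decide a genotype call.

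The count of chemokines called in unstimulated cells at 6 h was 1, and 0 with a constant prior, 2 with all 16 libraries in 1 fit and 0 to 1 leaving out a library. In stimulated cells at 6 h it was 0, and 0 to 1 leaving out a library (1 without library 10). Averaged over conditions it was 0, and 3 with no minimum fold change. By title in unstimulated cells at 24 h it was 1, and 0 with a constant prior, 2 with no minimum fold change, 0 by the tag and 0 to 2 leaving out a library. For 24 h against 6 h in unstimulated cells it was 4, and 7 with no minimum fold change. Adjusted p over all alternatives was 0.00638 to 0.186 for Ccl4 in unstimulated cells, and averaged over conditions 0.00278 to 0.131 for Ccl4, 0.00698 to 0.152 for Ccl3 and 0.00274 to 0.185 for Ccl22.

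Signs turned as follows on the log2 scale. By the tag, differences in unstimulated cells at 24 h were 0.24 for Ccl3, 0.22 for Ccl4, 0.52 for Ccl5, 0.30 for Ccl6, 0.01 for Ccl9, 0.74 for Ccl12 and 0.35 for Ccl22. In stimulated cells they were -0.41 for Ccl2, 0.48 for Ccl5, 0.38 for Ccl9, -0.42 for Ccl12 and 0.34 for Ccl22. In the single pair Ccl6 was 0.07. The difference in the 6 h response was 0.04 for Ccl3 after quantile normalization. That between the 24 h and 6 h responses of Ccl22 was 0.35 after quantile normalization and 0.24 scaled to own totals. Leaving out a library gave -0.45 to 1.87 for Ccl12 in unstimulated cells at 6 h and -0.11 to 1.05 averaged. In the 6 h interaction it gave -0.17 to 0.03 for Ccl3, -0.50 to 0.27 for Ccl5, -1.63 to 0.68 for Ccl12 and -0.03 to 0.42 for Ccl22. At 24 h it gave -0.51 to 0.04 for Ccl6 and -1.07 to 0.08 for Ccl22 without the stimulus, -0.06 to 0.72 for Ccl6 and -0.51 to 0.29 for Ccl7 with it, and -0.45 to 0.13 for Ccl22 between the responses. The cause was not tested.

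Over all genes, leaving out a library moved the calls by genotype at 6 h from 8 to 0 to 22 in unstimulated cells, from 4 to 0 to 135 in stimulated cells, from 3 to 0 to 35 averaged, and from 0 to at most 68 for the interaction. At 24 h they moved from 27 to 9 to 54 without and from 14 to 0 to 215 with the stimulus. By the tag 1 and 0 genes were called. A constant prior gave 3, 0 and 0 calls at 6 h (unstimulated, stimulated, averaged) and 5 and 2 at 24 h, and a mean of at least 5 CPM gave 5, 1 and 1 at 6 h and 24 and 30 at 24 h. With no minimum fold change these were 19, 5 and 24 at 6 h and 114 and 37 at 24 h, and the 6 h response had 8651 and 8528 calls (NFAM1+/+, NFAM1-/-) in place of 4807 and 4634. In the same way the 24 h response had 9472 in place of 4052, time 8233 in place of 2684 (unstimulated) and 9763 in place of 4308 (stimulated), and the difference in response 8588 in place of 4024. A mean of at least 5 CPM gave 2513, 1446, 2746 and 2658 for these 4.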
